A study of Mus musculus with 12 samples.

Results

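Mouse bone marrow cells carrying the leukaemia fusion CALM-AF10 were compared with cells carrying the same fusion without its OM-LZ stretch, CALM-AF10 ΔOM-LZ, to see which transcripts depend on that stretch. The comparison rests on 6 of the 12 arrays of the series, 3 per construct, and describes genes through the 21789 of 35556 probe sets that carry 1 gene symbol. The tests were run and adjusted over 23410 probe sets, which also hold 1621 with several symbols. The other 6 arrays, 3 of the empty retroviral vector MIG and 3 of a minimal fusion, CALM(400-648)+AF10(677-758), place these values and share in the estimate of spread of the 12-array fit. All 4 groups were adult marrow of the strain labelled C57/BL6/C3H, from donors given 5-fluorouracil, a drug that kills cycling cells and leaves marrow enriched for stem and progenitor cells. Marrow was pre-stimulated for 48 h, overlaid on irradiated (40 Gy) GFP+E86 virus producers with cytokines and protamine sulfate (5 µg/ml), and GFP-positive cells were sorted. Extraction followed 96 h after transduction, so every cell population, the ΔOM-LZ and MIG ones included, carried a retroviral construct. The promoter that drove the constructs, their protein level and the number of donors per culture are not stated in the labels, and the level of the fusion transcripts themselves was not analysed here. The labels call the replicates biological but do not say what a shared replicate number means. Without that, p-values measure the spread between these samples.

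AF10, encoded by Mllt10 in the mouse, binds the histone methyltransferase DOT1L through the octapeptide motif and leucine zipper that give the OM-LZ stretch its name. CALM, encoded by Picalm, is an adaptor of clathrin-mediated endocytosis. In CALM-AF10 leukaemia the fusion is known to bring DOT1L to the HOXA gene cluster, whose sustained expression keeps myeloid progenitors dividing and holds back their maturation.

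Cells with the full fusion had higher values for a stem and lymphoid progenitor receptor (Cd27), for Hoxa6, Hoxa7 and Hoxa9, and for a broad set of ribosome assembly genes. They had lower values for late neutrophil genes, for monocyte and macrophage genes, and for Prss34, a protease gene of basophils. The mast cell and basophil list as a whole was mixed, with 13 of 19 genes lower and 6 higher, and its median depended on single arrays. The ribosome and neutrophil differences were of like size in all 3 same-number pairs of arrays. The macrophage difference was larger in replicate number 1 than in the other two. Single genes did not separate beyond the spread across the 12 arrays: limma's test over 23410 probe sets, adjusted by the Benjamini-Hochberg method, called 0 (0%) at 0.05, with a smallest adjusted p of 0.9999 and 528 probe sets (2.26%) at an unadjusted p under 0.05. With limma's trend and robust options the counts were 0 and 462 (1.97%).

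Most of the spread among the 6 arrays followed the replicate numbers. Replicate number accounted for 74.05% of the sum of squares over all probe sets (2 degrees of freedom). The construct accounted for 13.5% (1 degree of freedom) and the rest for 12.45% (2 degrees of freedom). Arrays that share a number deviated together from their construct's mean, at r = 0.73, 0.72 and 0.70 across probe sets for numbers 1, 2 and 3. Between the same-number arrays 297, 205 and 63 probe sets differed by over 2-fold, whereas the other 6 combinations of a full-fusion and a ΔOM-LZ array gave 313 to 1173. For 8634 of 19938 genes (43.3%) the 3 replicates ranked in the same order in both constructs. The same deviations did not run through the whole series: between the full and the minimal fusion r was 0.72, 0.39 and −0.20. A fit of the 6 arrays with replicate number as a block, which leaves 2 residual degrees of freedom, is therefore given beside the 12-array fit. It called 1 probe set, Prss34 (0.00427%), and gave 3330 (14.2%) at an unadjusted p under 0.05, 2305 higher in the full fusion (9.85%) and 1025 lower (4.38%). Its median standard error was 0.08 against 0.14 without the block.

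A second background matters for every list. Of 23410 probe sets, 6.76% had groups that did not overlap (4.66% higher and 2.09% lower with the full fusion), and 38.9% had 3 same-number differences of 1 sign (23.1% higher and 15.8% lower). Over the 19938 genes the groups did not overlap for 4.81% higher and 2.13% lower, and all 3 pairs were higher for 22.8% and lower for 15.8%. These shares depended on brightness. Among the 9867 genes above the array median on all 12 arrays, 37.17% were higher in all 3 pairs and 9.78% lower, with a median difference of 0.08 on the log2 scale. Among the other 10071 genes the shares were 8.62% and 21.67%. Array medians themselves lay between 6.58 and 6.69. After quantile normalization between arrays the bright genes' shares were 28.01% and 15.68%.

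Prss34 encodes a serine protease of basophils and mucosal mast cells. It read 9.68, 9.0 and 8.66 in full-fusion replicates 1, 2 and 3 and 11.37, 10.70 and 10.24 in the ΔOM-LZ replicates. The groups did not overlap, and the 3 replicates ranked alike in both constructs. The same-number differences were −1.68, −1.70 and −1.58, a log2 fold change of −1.66 (3.15-fold lower; SE 0.44 over 12 arrays, SE 0.07 in the paired fit, limma adjusted p = 0.9999 and 0.03098). MIG cells read 8.90, 9.44 and 10.44 and minimal-fusion cells 10.62, 9.54 and 10.26, overlapping both constructs. Leaving out both arrays of any one replicate number ended the paired call. Such fits have fewer residual degrees of freedom than the 2 of the paired fit. The lost call therefore cannot show whether it rested on a single pair.

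Several other basophil genes, most of them picked after their values were seen, lay lower in each pair. None of these passed limma's adjusted p in either fit. Mcpt8, a basophil granule protease, differed by −0.97, −0.58 and −0.79. Ms4a2 and Fcer1a, subunits of the high-affinity IgE receptor, had log2 fold changes of −0.94 (SE 0.61) and −0.60 (SE 0.70). Hdc, which makes histamine, gave −0.92 (SE 0.49), and the basophil receptor gene Cd200r3 gave −1.08 (SE 0.82). Tpsab1, a tryptase of connective tissue mast cells, went the other way at 0.64 (SE 1.29), with 11.65, 7.71 and 9.03 in the full fusion and 10.71, 7.81 and 7.97 in ΔOM-LZ. Over the mast cell and basophil list 13 of 19 measured genes were lower and 6 higher. In all 3 pairs 9 were lower (47.37%, against 15.8% of all genes), and the list's median was −0.23. That median depended on single arrays, being −0.61 and −0.11 without full-fusion replicates 1 and 2, and −0.07 and −0.50 without ΔOM-LZ replicates 1 and 2. It was −0.08 without both arrays of number 2 and −0.41 without both of number 3. The stem and basophil regulator Gata2 gave −0.38 (SE 0.38), with −0.55, −0.55 and −0.04 by pair. In bulk RNA, fewer cells of a type and less RNA per cell cannot be told apart, here and for every list that follows.

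**Figure D1:**
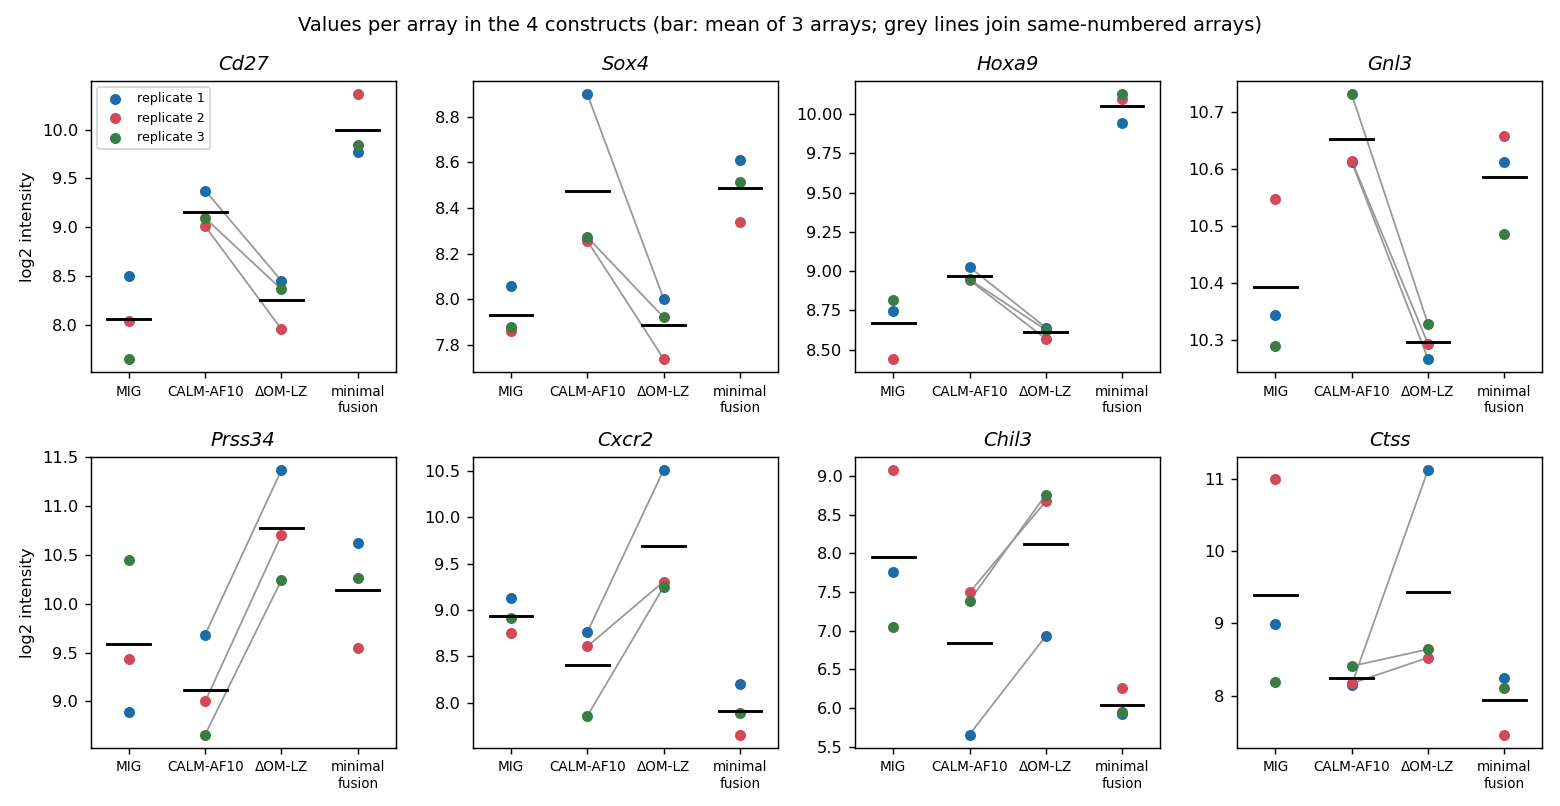
Log2 intensity per array for 8 genes in MIG, CALM-AF10, CALM-AF10 ΔOM-LZ and the minimal fusion (horizontal bars, means of 3 arrays; colours, replicate numbers; grey lines join same-numbered arrays of the 2 compared constructs). The lines for Prss34 and Chil3 run nearly parallel, with differences of −1.58 to −1.70 and −1.18 to −1.37, whereas for Ctss the difference is largest in replicate number 1 (−2.97).

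HOXA genes encode homeodomain transcription factors of stem and progenitor cells. The cluster had 10 measured genes, of which 9 were higher with the full fusion. In all 3 pairs 6 were higher (60%), against 22.8% of all genes and 37.17% of bright genes, to which 5 belong. The cluster's median was 0.18. That median was 0.29 without full-fusion replicate 2 and 0.12 without full-fusion replicate 3. It was 0.11 without both arrays of number 1 and 0.28 without both of number 2. Only Hoxa6 and Hoxa9 had groups that did not overlap (20%, against 4.81% of all genes higher). No member passed limma's adjusted p in either fit. Hoxa9, the member most tied to myeloid leukaemia, read 9.03, 8.94 and 8.95 in full-fusion cells and 8.64, 8.57 and 8.63 in ΔOM-LZ cells. Replicates of each construct lay close together, and the difference was 0.36 (1.28-fold; SE 0.11, paired SE 0.07). MIG cells gave 8.67 ± 0.20 (SD, n = 3), close to ΔOM-LZ, and minimal-fusion cells 10.05 ± 0.10. Hoxa9 was 1.08 higher in the minimal than in the full fusion (limma adjusted p = 0.016).

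Hoxa6 read 7.90, 7.46 and 7.77 against 7.25, 6.94 and 7.38, a difference of 0.52 (SE 0.16). Its lowest full-fusion array lay just above the highest ΔOM-LZ array. Hoxa7 gave 8.91, 8.47 and 9.25 against 8.43, 7.63 and 8.70. Its groups overlapped because replicate 2 was low in both constructs, while each pair differed by 0.48 to 0.84 (log2 fold change 0.62, SE 0.26, paired SE 0.09). Hoxa3 and Hoxa5 gave 0.24 each, with Hoxa5 at −0.02 in pair 2. Hoxa10, which was 1.17 higher in the minimal than in the full fusion, gave 0.13 here with pairs of 0.17, −0.06 and 0.27. Hoxa2, Hoxa4, Hoxa11 and Hoxa13 lay between −0.13 and 0.10, within their standard errors of 0.11 to 0.17. Levels of different genes are not compared, since each probe set has its own response.

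**Figure D2:**
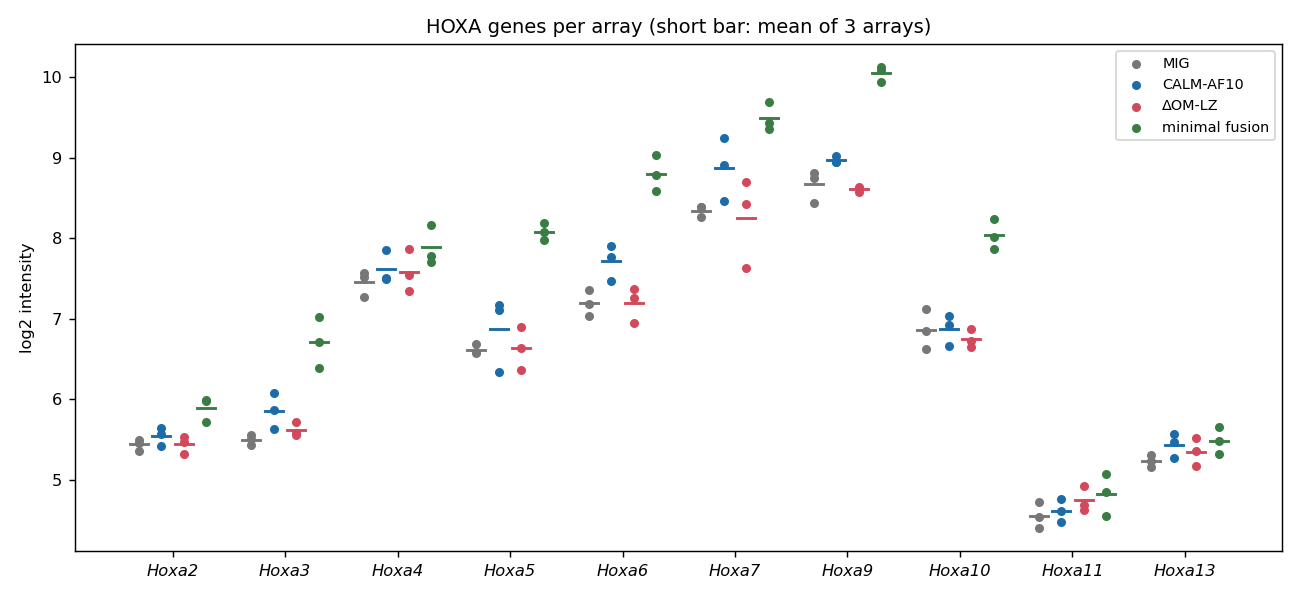
Log2 intensity of the 10 measured HOXA genes per array in the 4 constructs (points, arrays; short bars, means of 3). Full-fusion points lie clear of ΔOM-LZ points for Hoxa6 and Hoxa9. All minimal-fusion points lie above all full-fusion points for Hoxa2, Hoxa3, Hoxa5, Hoxa6, Hoxa7, Hoxa9 and Hoxa10. Of these only Hoxa9 passed limma's adjusted p for the minimal against the full fusion (0.016).

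The partners of the fusion and of HOX proteins showed small differences. Meis1, the DNA-binding partner of HOXA9, read 10.69, 9.31 and 10.11 with the full fusion and 10.58, 9.21 and 9.81 without OM-LZ. It ranged widely between replicates and differed by 0.10 to 0.31 within pairs (log2 fold change 0.17, SE 0.41). Pbx4 (0.24, SE 0.14) was the only HOX cofactor of 8 with groups that did not overlap. With 12.5% here against 6.942% of all genes, a single gene is near the background. Pknox2 was lower in each pair (−0.34, SE 0.33). Mllt10 gave −0.04 (SE 0.12) and Dot1l −0.07 (SE 0.13), each with pairs of both signs. Whether the Mllt10 probes also read the retroviral AF10 was not tested. Bmi1, a Polycomb gene that neighbours Mllt10 and is a known target in CALM-AF10 cells, gave 0.27 (SE 0.21), from 0.05, 0.27 and 0.49. The medians were 0.04 for the HOX cofactors, −0.01 for the Mllt10 and Bmi1 neighbourhood (7 genes) and 0.05 for the DOT1L and AF10 partner complexes (23 genes). In that last list Aff3 stood highest with 10.40, 8.99 and 9.82 against 9.58, 8.49 and 9.16 (0.66, SE 0.36). Psip1, which tethers MLL to chromatin, followed at 0.31 (SE 0.15).

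Progenitor markers were higher in part. Cd27 read 9.38, 9.01 and 9.09 with the full fusion and 8.45, 7.95 and 8.36 without OM-LZ. The groups did not overlap, and the log2 fold change was 0.90 (1.87-fold; SE 0.23, paired SE 0.09, limma adjusted p = 0.9999 and 0.1927). MIG cells stood at 8.06 ± 0.42 (SD, n = 3) and minimal-fusion cells at 9.99 ± 0.32. Flt3, the receptor of early lymphoid and myeloid progenitors, gave 8.23, 6.86 and 8.62 against 7.31, 6.18 and 7.58. Its groups overlapped because replicate 2 was low in both, while the pairs differed by 0.93, 0.67 and 1.03. Cd34, a surface marker of progenitors, gave 0.55 (SE 0.29), with 0.49, 0.77 and 0.39 by pair. Sox4, a transcription factor of leukaemia-initiating cells, read 8.90, 8.26 and 8.27 against 8.0, 7.74 and 7.92 (0.59, SE 0.17). Hmga2 (0.26, SE 0.14) and Fgd5 (0.21, SE 0.11) also had groups that did not overlap. Others went the other way: 7 of the 24 measured markers were lower, with Gata2 at −0.38 (SE 0.38) and the lowest at −0.67.

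Of 24 measured stem and progenitor markers 17 were higher. Their median was 0.20, but 0.04 without full-fusion replicate 1 and 0.12 without ΔOM-LZ replicate 2. In all 3 pairs 9 were higher (37.5%) and 4 lower (16.67%), against 22.8% and 15.8% of all genes. Among bright genes, to which 18 of the 24 belong, the shares were 37.17% and 9.78%. The count of higher markers was thus near the bright-gene background. Of 21 leukaemia self-renewal factors 20 were higher, with a median of 0.23. In all 3 pairs 15 were higher (71.43%), against 22.8% of all genes and 37.17% of bright genes, to which 17 belong. This list is not separate from those above, since it holds Hoxa9 of the HOXA cluster and Sox4 of the progenitor markers. The median was 0.37 without full-fusion replicate 2, and without full-fusion replicate 1 it was 0.15 with 17 of 21 higher. Id2, an inhibitor of differentiation factors, was the exception there at −0.61 (SE 0.55). Mecom, a zinc finger oncogene of stem cells, read 7.26, 6.19 and 7.02 against 6.93, 6.01 and 6.45 (0.36, SE 0.38). Eya1, a developmental phosphatase, gave 0.47 (SE 0.42), with pairs of 0.51, 0.03 and 0.88. Its minimal-fusion mean was 9.02, above both constructs compared. Myb, a master regulator of immature blood cells, read 11.69, 11.78 and 11.67 against 11.26, 11.56 and 11.58, which did not overlap (0.25, SE 0.10).

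Ribosome biogenesis genes build the ribosomal subunits in the nucleolus, and MYC is known to drive many of them. All 25 measured members were higher with the full fusion in each of the 3 pairs, against 22.8% of all genes and 37.17% of the bright genes to which all 25 belong. In 20 (80%) the groups did not overlap and lay higher, against 4.81% of all genes and 8.473% of the bright genes. The median difference was 0.29, and it was 0.28, 0.26 and 0.31 for replicate numbers 1, 2 and 3. No member passed the adjusted p in either limma fit, while 10 had an unadjusted p under 0.05 in the 12-array fit and 23 in the paired fit. Over all 23410 probe sets the shares under that limit were 2.26% in the 12-array fit and 14.2% in the paired fit. The paired share was made up of 9.85% higher and 4.38% lower. After quantile normalization 23 of the 25 were higher in all 3 pairs, 13 had groups that did not overlap, and the median was 0.24. The groups came apart less often on that scale. The bright-gene background was also lower there, at 28.01% higher in all 3 pairs and 5.047% higher without overlap.

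Gnl3, nucleostemin, read 10.61, 10.61 and 10.73 with the full fusion and 10.27, 10.29 and 10.33 without OM-LZ. The replicates of each construct lay close together, and the difference was 0.36 (SE 0.09). Nop14, needed for the small subunit, gave 9.56, 9.51 and 9.76 against 9.34, 9.07 and 9.37 (0.35, SE 0.14). At the low end Heatr1, a pre-rRNA transcription factor, gave 0.21 (SE 0.15). Bop1, needed for the large subunit, gave 0.15 (SE 0.29), with groups that overlapped because replicate 2 was high in both constructs. Noc3l stood highest at 0.47 (SE 0.23), followed by Rrs1 at 0.43 (SE 0.17). Dkc1, the pseudouridine synthase, gave 0.39 (SE 0.16), and Ncl and Npm1, the abundant nucleolar proteins, gave 0.21 (SE 0.08) and 0.22 (SE 0.10). The summed linear intensity of the list was 39672 to 41767 in full-fusion arrays and 33812 to 33895 in ΔOM-LZ arrays. MIG arrays gave 32529 to 36799 and minimal-fusion arrays 36648 to 41110. The full fusion thus stood above both MIG and ΔOM-LZ, and the minimal fusion overlapped all but ΔOM-LZ.

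Myc read 12.80, 12.43 and 12.77 against 12.33, 12.14 and 12.48. Full-fusion replicate 2 lay below ΔOM-LZ replicate 3, and the pairs differed by 0.48, 0.29 and 0.29 (log2 fold change 0.35, SE 0.12). Ribosomal protein genes differed less, with a median of 0.08 over 24 genes. In all 3 pairs 18 were higher (75%), and 12 after quantile normalization (50%), against 37.17% and 28.01% of bright genes. DNA replication genes did not follow the same course: their median was 0.20, 0.20 and −0.31 by pair. Of 35 genes, all of them bright, 0 were higher and 1 lower (2.857%) in all 3 pairs, against 37.17% and 9.78% of bright genes. Values for mitosis genes were 0.06, 0.11 and −0.27.

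**Figure D3:**
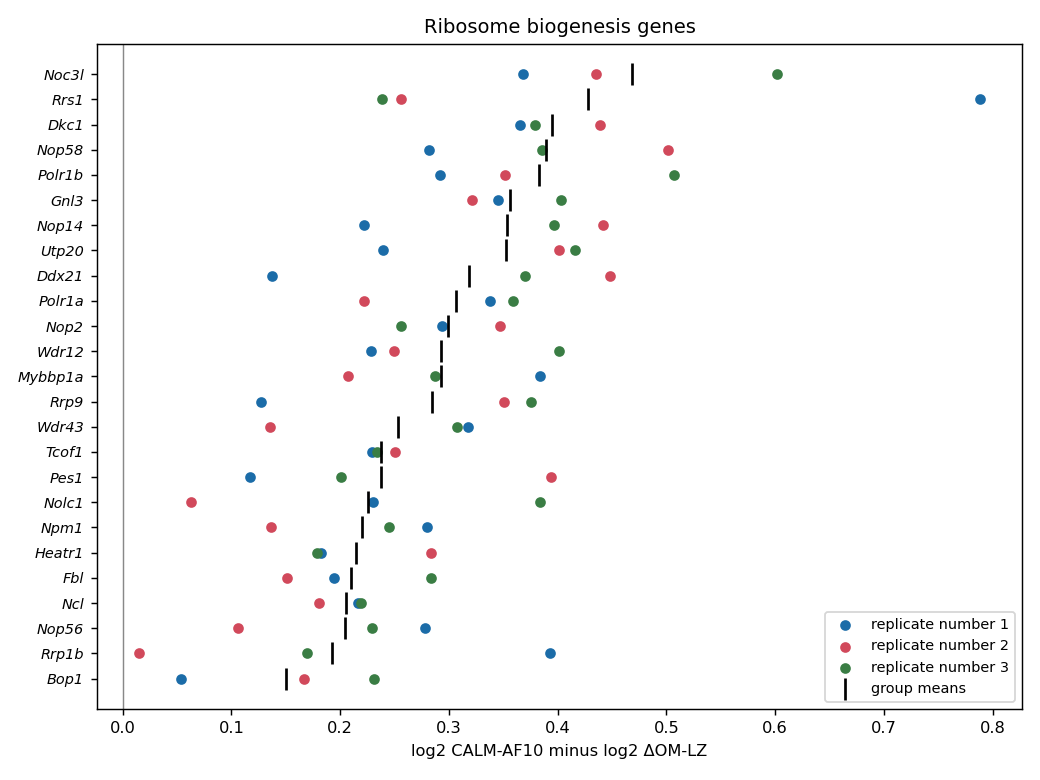
Log2 difference, CALM-AF10 minus CALM-AF10 ΔOM-LZ, for the 25 ribosome biogenesis genes (points, same-number differences; black bars, difference of group means). Every point lies right of 0, and group mean differences run from 0.15 (Bop1) to 0.47 (Noc3l).

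The letters CACGTG, the E-box to which MYC and MAX bind, were looked for on both strands in RefSeq promoter windows of 300 bases (250 before to 50 after each start; GRCm38.p6). They read the same on either strand. A window was found for 20 of the 25 ribosome biogenesis genes, and 5 of the 20 (25%) held the letters, against 9.496% of 15606 measured genes with a window. All 25 are bright genes, and the share among bright genes was not computed. The 5 stretches are shown because they are the letters these genes of the list share, with the E-box in capitals, 30 bases each on the strand of the gene.
Mybbp1a: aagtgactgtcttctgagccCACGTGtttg
Nop2: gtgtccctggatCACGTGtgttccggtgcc
Pes1: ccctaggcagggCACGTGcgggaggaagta
Utp20: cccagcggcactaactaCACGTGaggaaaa
Wdr43: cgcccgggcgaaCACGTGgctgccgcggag
They lie at chr11:72441347-72441376 (plus strand, Mybbp1a), chr6:125131811-125131840 (plus, Nop2), chr11:3963965-3963994 (plus, Pes1), chr10:88826765-88826794 (minus, Utp20) and chr17:71616220-71616249 (plus, Wdr43). The Nop2 letters begin at base −60 from the start, and those of the other 4 lie in the first 50 bases after it. The differences of these genes were 0.29, 0.30, 0.24, 0.35 and 0.25 in the order shown, within the range of the list. A match is a description of letters and was not tested as a binding site.

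Late neutrophil genes encode the secondary granule proteins, S100 proteins and receptors that appear as granulocytes mature. All 27 measured members had lower means with the full fusion, 20 lower in all 3 pairs against 15.8% of all genes, with a median of −0.63 (−0.59, −0.41 and −0.62 by replicate number). No member passed limma's adjusted p in either fit. The groups did not overlap for 2, Cxcr2 and Anxa1 (7.407%, against 2.13% of all genes lower). Cxcr2, the chemokine receptor that releases neutrophils from marrow, read 8.76, 8.61 and 7.85 against 10.51, 9.31 and 9.25 (−1.28, SE 0.33). Anxa1, an abundant anti-inflammatory protein of neutrophils, gave 9.19, 9.01 and 8.65 against 10.19, 9.41 and 9.30 (−0.68, SE 0.25). Lcn2, a secondary granule protein with high values throughout, gave −0.09 (SE 0.36).

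In several genes, picked after their values were seen, the replicates spread widely while the 3 pairs gave like differences. Ngp, neutrophilic granule protein, read 10.43, 12.34 and 12.19 with the full fusion and 11.03, 12.96 and 12.79 without OM-LZ. Replicate 1 was low in both constructs, and the 3 differences were −0.59, −0.62 and −0.60 (paired SE 0.07, paired limma adjusted p = 0.1927). Chil3, a chitinase-like protein of neutrophils and macrophages, gave 5.66, 7.49 and 7.39 against 6.93, 8.67 and 8.76. Its differences were −1.27, −1.18 and −1.37 (paired SE 0.08, paired limma adjusted p = 0.0848). S100a9, a calcium-binding protein of neutrophils, gave 8.54, 10.98 and 10.85 against 9.39, 11.70 and 11.88, or −0.85, −0.71 and −1.04. Ltf, lactoferrin, gave −0.70, −1.09 and −0.82. Ly6g, the surface marker of mature neutrophils, gave −1.42, −1.28 and −0.74, with replicate 1 the highest in both constructs.

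The late neutrophil median was −0.58 to −0.64 when both arrays of 1 replicate number were left out. With single arrays left out it was −0.23, −0.71 and −0.75 without full-fusion replicates 1, 2 and 3, and −0.87, −0.38 and −0.39 without ΔOM-LZ replicates 1, 2 and 3. The summed intensity was 17460 to 30744 with the full fusion, 26898 to 41897 without OM-LZ, 15664 to 35348 in MIG and 14420 to 20150 with the minimal fusion. The full and deleted fusions overlapped on that sum, and the minimal fusion stood below ΔOM-LZ. Primary granule genes, made at the promyelocyte stage, did not keep to 1 side: their median was 0.21, −0.02 and −0.26 by pair. By group means 7 of 10 genes were lower, with a median of −0.10. In all 3 pairs 1 was higher (10%) and 1 lower (10%), against 22.8% and 15.8% of all genes. Among bright genes, to which 9 of the 10 belong, the shares were 37.17% and 9.78%.

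The letters TTGCNNAA, a core that C/EBP factors recognise, were looked for in the same windows on both strands (the reverse strand reads TTNNGCAA). C/EBP factors are regulators of granulocyte genes. They were found in 8 of 24 late neutrophil genes with a window (33.33%), against 11.26% of measured genes, 3 of 22 monocyte and macrophage genes (13.64%) and 2 of 20 ribosome biogenesis genes (10%). The stretches of 4 genes described above, and of Lcn2, which had pairs of both signs, are shown with the match in capitals.
Ngp: accggcagttcTTGGGCAAggcagtctcaa
Ltf: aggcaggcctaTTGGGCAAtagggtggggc
S100a9: ggtaggctgtcTTGCTTAAgatttgggcgg
Ly6g: ctaggaaggggTTGAGCAAgttgcctcttt
Lcn2: agcccttcctgTTGCTCAAccttgcacagt
They lie at chr9:110419786-110419815 (plus strand, Ngp), chr9:111019206-111019235 (plus, Ltf), chr3:90695939-90695968 (minus, S100a9), chr15:75155018-75155047 (plus, Ly6g) and chr2:32387937-32387966 (minus, Lcn2). Counted from the start of each gene, the match began at base −11 in Ngp, −75 in Ltf, −236 in S100a9, −232 in Ly6g and −216 in Lcn2. Ngp held 2 matches in its windows, and the nearer to the start is shown. Anxa1, also described above, held a match at base −143 that is not shown. Of the 8 genes with a match, 6 were lower in all 3 pairs, and Lcn2 and Retnlg (−0.07, SE 0.14) had pairs of both signs.

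Monocyte and macrophage genes had lower means with the full fusion in 30 of 31 cases. In all 3 pairs 18 were lower (58.06%, against 15.8% of all genes). For 6 the groups did not overlap (19.35%, all lower, against 2.13% of all genes). The list's median of −0.76 came largely from 1 replicate number, being −1.64, −0.36 and −0.15 for numbers 1, 2 and 3. Without number 1 the median was −0.25 and 24 of 31 were lower. The array that stood apart was ΔOM-LZ replicate 1, where the list lay on average 1.36 above its mean over the 12 arrays, against 0.01 and 0.25 in the other ΔOM-LZ arrays and −0.31 to 0.07 in the full-fusion arrays. MIG replicate 2 reached 1.25, so that the list ranged as widely among cells with the empty vector. Mrc1, the macrophage mannose receptor, read 6.59, 5.98 and 5.42 against 10.24, 6.53 and 6.14. C1qb, a complement component of macrophages, read 6.32, 6.09 and 6.03 against 10.15, 6.44 and 6.05. In the other 5 arrays both lay below the array's median. Gpnmb, a lysosomal glycoprotein, differed by −3.86, −0.48 and −0.02. Csf1r, the receptor for macrophage colony-stimulating factor, differed by −1.64, 0.07 and 0.01.

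Some genes of this class differed in each pair. Ccl6, a myeloid chemokine, read 11.65, 11.03 and 11.20 against 12.86, 11.94 and 11.97. Its groups did not overlap, and the difference was −0.96 (SE 0.36, paired SE 0.10). F13a1, coagulation factor XIII of monocytes and platelets, gave −1.0 (SE 0.47), from −1.81, −0.11 and −1.09. Msr1, a scavenger receptor, gave −1.36 (SE 0.65), from −2.63, −0.96 and −0.49. Maf, a macrophage transcription factor, gave −1.0 (SE 0.42), from −2.39, −0.42 and −0.19.

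**Figure D4:**
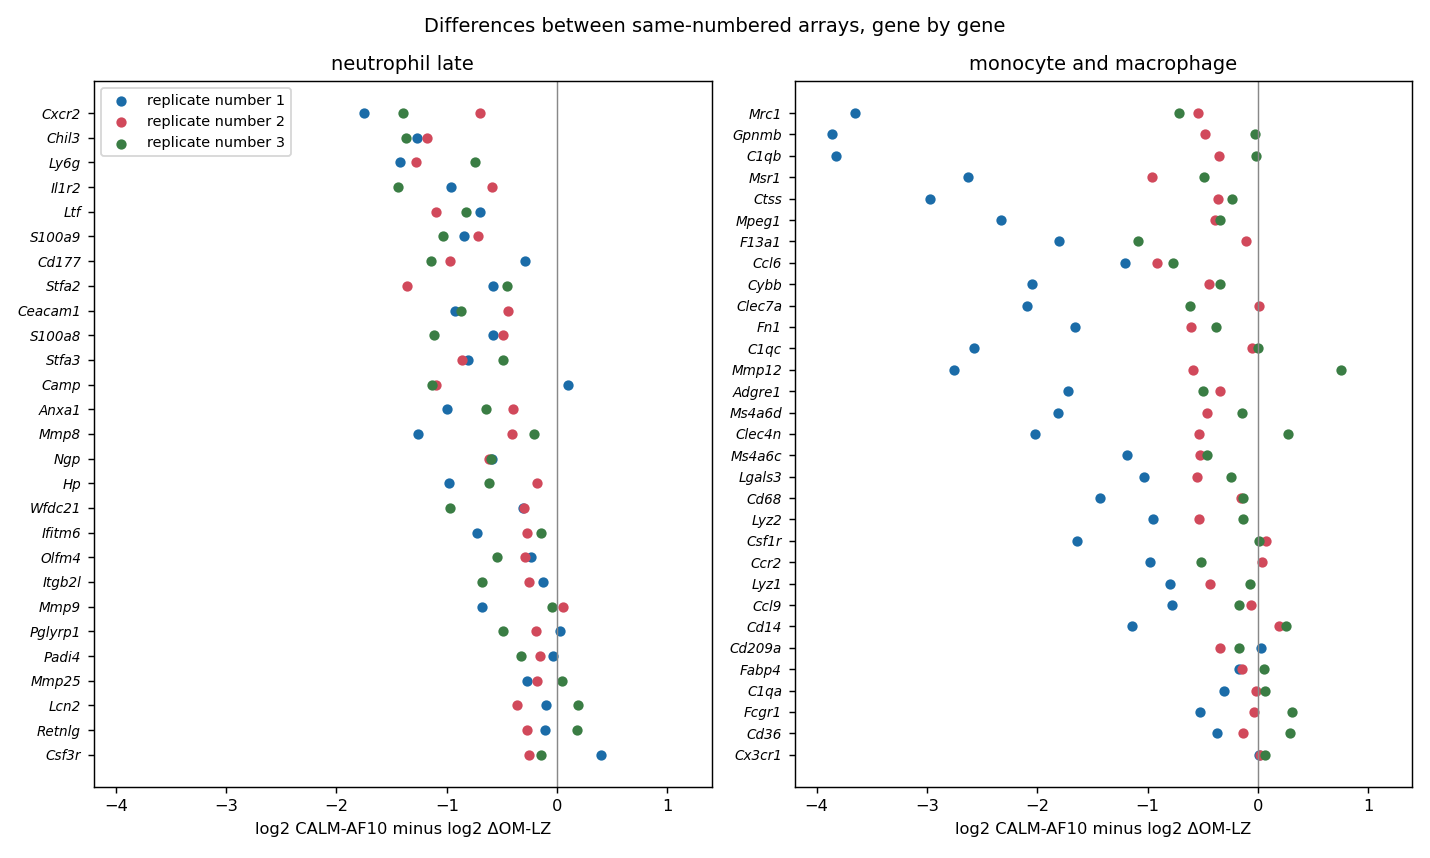
Log2 difference, CALM-AF10 minus CALM-AF10 ΔOM-LZ, between same-numbered arrays for the 27 late neutrophil genes (left) and the 31 monocyte and macrophage genes (right). On the left the 3 colours intermingle (list medians −0.59, −0.41 and −0.62), and on the right replicate number 1 lies far below numbers 2 and 3 (−1.64, −0.36 and −0.15).

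Further genes were chosen for size among those with groups that did not overlap and 3 differences of one sign. By the choice their groups are separate, so their values are a description. Besides Prss34, Cxcr2 and Msr1, the 15 lowest held receptors of the innate immune system, Tlr13 (−1.41) and Tlr8 (−1.40). They held the leukotriene hydroxylase Cyp4f18 (−1.48), which read 7.38, 7.16 and 6.45 against 9.17, 8.14 and 8.11. Lysosomal and uptake genes among them were Ctss (−1.19), Dnase2b (−1.39), Lrp1 (−1.09) and Trem2 (−1.04). The others were the nucleotide receptor P2ry6 (−1.13), the growth factor Igf1 (−1.17), the GTPase Gem (−1.03), Grm6 (−1.03) and Gm5150 (−1.20). Most of these shared the replicate 1 pattern: Igf1 gave −3.06, −0.20 and −0.25, and Gem −2.41, −0.40 and −0.29. Ranked instead by the smallest of the 3 differences, the lowest added Ccl6, the myosin Myo1d (−0.96), the nuclear envelope gene Syne1 (−0.75, from −0.63, −0.91 and −0.71), the matrix gene Tgfbi (−0.82) and the lipoxygenase Alox8 (−0.98).

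The 15 highest were smaller in size, from 0.52 to 0.90, and of mixed function. After Cd27 came the polarity gene Pard6g (0.71), 9030619P08Rik (0.69), the melanocortin receptor Mc5r (0.65) and Bclaf3 (0.64). Smo, the transducer of Hedgehog signals, read 10.39, 10.17 and 10.11 against 9.93, 9.43 and 9.50 (0.60, SE 0.18). Dnmt3b, a de novo DNA methyltransferase, read 8.47, 8.15 and 8.14 against 7.87, 7.65 and 7.61 (0.54, SE 0.15). The kinase Prkch gave 0.58, Cand2 0.55, the branched-chain amino acid enzyme Bckdhb 0.55, the vitamin E carrier Ttpa 0.54, the mitochondrial transcription factor Tfam 0.53 and the peptide receptor Vipr2 0.52. The smallest-difference rank added Hook1 (0.52, from 0.55, 0.55 and 0.46), Txnrd3 (0.48), the corepressor Rcor2 (0.51) and Ajuba (0.52). Rcor2 read 8.01, 7.87 and 8.0 with the full fusion and 7.43, 7.43 and 7.48 without OM-LZ. Sox4 and Hoxa6, described above, complete the 15.

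**Figure D5:**
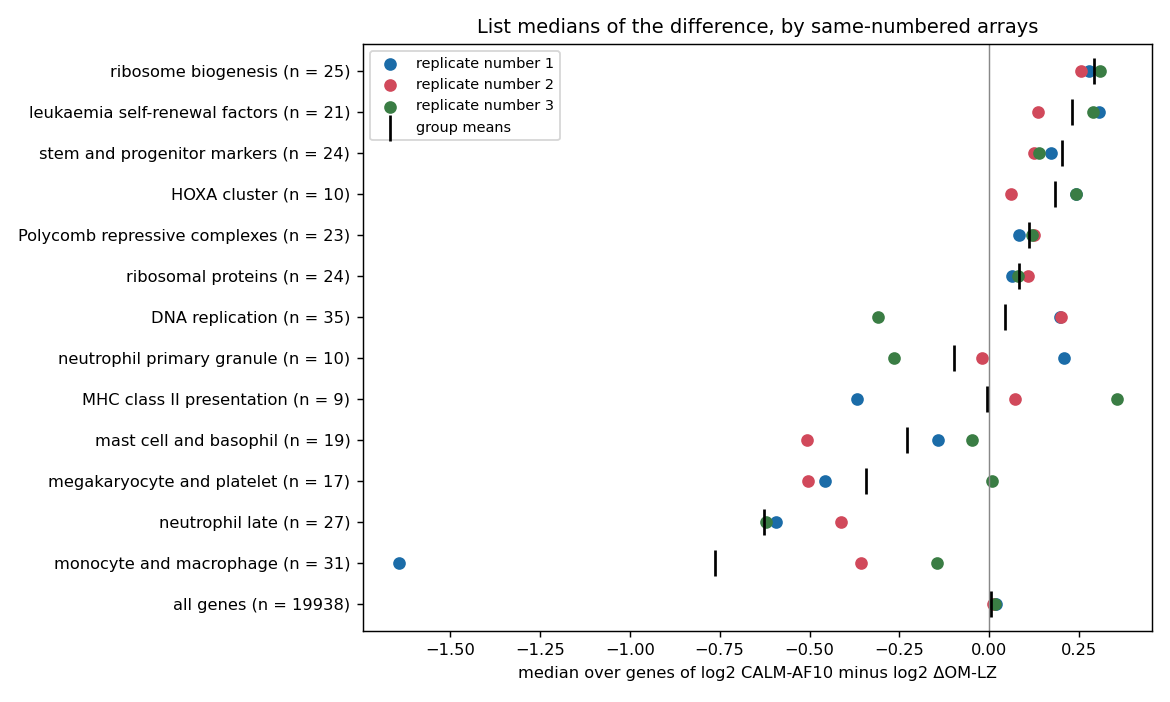
Median over each list of the log2 difference CALM-AF10 minus CALM-AF10 ΔOM-LZ (coloured points, same-number differences; black bars, medians of the group mean differences; n, genes measured). Ribosome biogenesis (0.26 to 0.31) and late neutrophil genes (−0.41 to −0.62) keep their side in all 3 pairs, whereas DNA replication, primary granule and MHC class II genes lie on both sides of 0.

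A comparison of other arrays, the minimal fusion against MIG, called 8 probe sets in limma's 12-array fit (0.0342%). Its means share no array with the comparison above, but its estimate of spread does. The 7 higher there were Hoxa3, Hoxa6, Hoxa9, Hoxa10, Cd27, Nkx2-3 and Zscan25. All 7 had higher means in the full than in the deleted fusion, 5 in all 3 pairs and 3 with groups that did not overlap (Hoxa6, Hoxa9 and Cd27), against 23.1% and 4.66% of all probe sets. Their median was 1.21 there and 0.24 here. Nkx2-3, a homeobox gene, read 7.21, 7.04 and 7.07 against 6.68, 6.98 and 7.04 (0.20, SE 0.15), so that only pair 1 differed clearly. Zscan25 gave 0.04 (SE 0.08), with pairs of both signs, and −0.01 after quantile normalization. Ankrd37, lower with the minimal fusion than with MIG by 1.11, read 6.66, 6.87 and 6.59 against 6.59, 6.82 and 6.47 (0.08, SE 0.14). Both lay below the MIG mean of 7.69. The 50 probe sets highest and the 50 lowest for the minimal fusion against MIG were taken by limma's moderated statistic. Of the 50 highest 44 were higher here and 20 did not overlap, with a median of 0.22. They include the 7 above, and of the other 43 there were 37 higher. Of the 50 lowest 38 were lower here and 6 did not overlap, with a median of −0.17. Over all 23410 probe sets 11989 were higher and 11412 lower. Calls and ranks took their spread from all 12 arrays, which favours probe sets with little spread in the compared constructs. The counts that did not overlap are therefore a description only.

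Markers of other cells were read beside these results. All 13 blood cell identity genes lay above the array median on all 12 arrays. Of 22 fibroblast and producer-line genes 9 did, and the list's median difference was −0.04. Its summed intensity was 3740 to 4528 with the full fusion and 3421 to 4231 without OM-LZ, so that the groups overlapped. Megakaryocyte and platelet genes gave a median of −0.34 over 17 genes, but −0.46, −0.50 and 0.01 by pair. MHC class II genes gave −0.37, 0.07 and 0.35. The part of any of these in the differences above was not tested. With 3 arrays against 3, an exact two-sided permutation test cannot give a p below 0.1, and with 3 pairs not below 0.25, so single values carry no further test.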

How the data were processed

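The deposited values were log2 intensities of 12 Affymetrix arrays, 1 value per probe set. Per the submitters' processing notes the authors used Affymetrix Expression Console. Its version and the way probes were summarised and arrays scaled are not given there, and the main values were used as deposited. That they are log2 values follows from their range, 2.883 to 14.27. Of 35556 probe sets, 23410 had a gene symbol in the platform annotation and were tested, 21789 with 1 symbol and 1621 with several. The other 12146 had none. The brightest probe set stood for each of 19938 genes.

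Tests used lmFit and eBayes of limma 3.58.1 under R 4.3.3 (12 arrays, 1 mean per construct, two-sided, Benjamini-Hochberg over 23410 probe sets, threshold 0.05). Same-numbered arrays of the 2 constructs had correlated deviations in all 3 pairs (r = 0.70 to 0.73), so a fit of the 6 arrays with the replicate number as a block is given beside it. That pairing comes from the data, not the labels. The number of arrays limits the precision.

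Among 1-symbol genes with non-overlapping groups and 3 differences of one sign, the text names the 15 highest and 15 lowest, and the 10 with the largest smallest difference in each direction. It also names calls, HOXA genes, some of their cofactors and, from other lists, members with extreme statistics. Further genes of the neutrophil, monocyte, basophil, progenitor and ribosome lists were chosen after their values were seen. The comparison and the 42 gene lists were chosen with earlier results of these data known. Summed intensities are sums of 2 to the power of the log2 values.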

Additional observations from a re-analysis of the deposited data

How the results depend on the processing

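The count of 0 called probe sets was 0 in every 12-array alternative: trend and robust variance, median centring, quantile normalization, bright probe sets only, all probe sets, gene means, the replicate block over 12 arrays, and each array left out. It was also 0 in the 6 arrays without a block. With the replicate block over the 6 arrays it was 1 (Prss34). Leaving out a replicate number from that fit gave 0 to 0, with fewer residual degrees of freedom. Alternatives chosen after seeing the data gave, for the paired fit, 6 with trend and robust variance, 2 after quantile normalization and 1 after median centring. The 6, all lower with the full fusion, were Prss34 (limma adjusted p = 0.004782), Akr1c18 (0.01308), Chil3 (0.02279), Ngp (0.02279), Padi2 (0.04716) and a probe set with several symbols. Chil3 was the second of the 2 (0.04968). The block changed no other call.

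Of 105 named genes 93 kept their sign in each of the 26 or 27 alternatives that gave them a value (the filter on bright probe sets drops dim ones). Quantile normalization turned Zscan25 to −0.0059, with or without the block. In the paired fit, leaving out replicate number 1 turned Hoxa4 to −0.0286 and Csf1r to 0.0413, and leaving out number 2 turned Mllt10 to 0.0406, Dot1l to 0.0316, Retnlg to 0.0362 and Lcn2 to 0.044. Leaving out single arrays gave ranges that crossed 0 for Tpsab1 (−0.46 to 1.58), Hoxa4 (−0.0826 to 0.18), Hoxa13 (−0.0016 to 0.17), Meis1 (−0.15 to 0.54), Mllt10 (−0.0826 to 0.0409), Dot1l (−0.20 to 0.0685), Bop1 (−0.0611 to 0.35), Ngp (−1.22 to 0.0078), Retnlg (−0.15 to 0.0235) and Lcn2 (−0.44 to 0.19). Of the 7 probe sets that the minimal fusion raised over MIG, 6 to 7 had higher means with the full fusion. The cause of these changes was not tested. The 3 arrays per construct limit every value.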

Other observations

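Probe sets without a gene symbol were tested apart. Of 12146, limma called 0 in the 12-array fit (smallest adjusted p = 0.636) and 0 in the paired fit (0.6331), where 898 (7.39%) had an unadjusted p under 0.05. Interferon response genes, which can respond to retroviral transduction, gave a median of 0.09 over 30 genes. In all 3 pairs 6 were higher (20%) and 2 lower (6.667%), below the 22.8% and 15.8% of all genes. Polycomb genes, which keep developmental loci silent, were higher in 19 of 23 cases, with a median of 0.11 close to the 0.08 of bright genes. In all 3 pairs 12 were higher (52.17%), against 37.17% of bright genes. Heat shock proteins gave 0.13 over 15 genes, 9 higher (60%) and 0 lower in all 3 pairs, against 37.17% and 9.78% of bright genes. Inflammatory cytokines gave −0.25 over 29 genes, but −0.69, −0.30 and 0.10 by pair.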
